A study of Mus musculus with 9 samples.

Results

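The genes described here are 44 genes of the dividing cell, 21 that act as DNA replication is prepared and carried out (S-phase genes) and 23 that act in mitosis, followed in macrophages of the mouse fetal liver (FL) with and without Xpr1. They were taken by symbol: each row of the deposited normalized count table whose Ensembl identifier carries one of these symbols in the GENCODE mouse annotation was taken, and all 44 had a row among the 13708 genes of the table. All 44 also passed the filter on low values, which kept the 13594 genes that reached 10 normalized counts in 4 or more samples.

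Bulk RNA-seq was made from CD45+ F4/80hi CD11blow macrophages sorted at E15.5 (E, embryonic day) from 5 Mrc1Cre Xpr1fl/fl and 4 Xpr1fl/fl mouse embryos or embryo pools, and the labels do not say which, so p-values measure the spread between these samples. Both groups carried the floxed Xpr1 allele on both chromosomes, so the controls had the same allele without Cre. Xpr1 encodes the phosphate exporter of the cell. Mrc1Cre expresses iCre and eYFP from the Mrc1 locus, whose product CD206 is also present on liver sinusoidal endothelium, so Cre is not particular to the sorted cells. Libraries were made from 45 ng of RNA, and the deposited values are normalized counts that sum to between 26942921 and 28309443 per sample, since the authors had already scaled them.

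Genes of S phase and mitosis are switched on in waves. At the G1/S border E2F transcription factors, released from the retinoblastoma protein, raise the genes for the replicative helicase, the sliding clamp and deoxynucleotide synthesis. Later the MuvB complex, with B-MYB and FOXM1, acts through CHR elements to raise the genes for mitotic cyclins, kinases, kinetochore and spindle proteins. CCAAT boxes, which the factor NF-Y binds, stand in many of the same promoters. Macrophages of the FL, unlike most macrophages of the adult, are a cycling population, and the erythroblasts that surround and adhere to them cycle too. In bulk RNA, fewer cells of a type and less RNA per cell cannot be told apart.

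The promoters below are shown so that those letters, or their lack, can be read beside the values of 3 called genes of each phase and of Mcm6, which was not called. They come from RefSeq, assembly GRCm38.p6, and run from 250 bases before the annotated start of transcription to 30 bases after it. Of the 44 members, 36 had a promoter in this table, and in 22 of the 36 the start was the outermost end of the gene; only such windows are printed. Capitals mark matches, on either strand, to 4 E2F spellings (TTTCCCGC, TTTGGCGC, TTTCGCGC and TTTGCCGC), to the CHR letters TTTGAA and to the CCAAT box, which NF-Y binds. On the opposite strand TTTGAA reads TTCAAA and CCAAT reads ATTGG. Mcm6 was added after its letters were seen, as the S-phase window with the most E2F matches.
Rrm2 (chr12:24708004-24708283, plus strand): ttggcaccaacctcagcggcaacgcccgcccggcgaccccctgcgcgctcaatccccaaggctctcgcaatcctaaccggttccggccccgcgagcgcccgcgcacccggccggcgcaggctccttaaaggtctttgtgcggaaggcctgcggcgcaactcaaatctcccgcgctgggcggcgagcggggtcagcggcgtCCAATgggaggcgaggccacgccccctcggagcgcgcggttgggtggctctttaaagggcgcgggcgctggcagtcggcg
Pcna (chr2:132253151-132253430, minus strand): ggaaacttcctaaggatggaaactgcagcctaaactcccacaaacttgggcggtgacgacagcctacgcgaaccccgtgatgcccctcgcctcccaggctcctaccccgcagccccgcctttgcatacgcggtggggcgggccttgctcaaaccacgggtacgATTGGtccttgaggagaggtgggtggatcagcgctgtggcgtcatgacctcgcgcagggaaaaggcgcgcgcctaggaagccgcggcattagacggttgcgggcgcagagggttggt
Rfc4 (chr16:23127701-23127980, minus strand): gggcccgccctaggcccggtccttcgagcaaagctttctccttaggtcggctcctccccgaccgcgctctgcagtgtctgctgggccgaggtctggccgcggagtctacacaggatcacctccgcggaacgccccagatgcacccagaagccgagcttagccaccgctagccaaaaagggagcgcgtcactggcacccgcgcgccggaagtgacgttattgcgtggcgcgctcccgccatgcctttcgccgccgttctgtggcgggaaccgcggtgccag
Mcm6 (chr1:128359676-128359955, minus strand): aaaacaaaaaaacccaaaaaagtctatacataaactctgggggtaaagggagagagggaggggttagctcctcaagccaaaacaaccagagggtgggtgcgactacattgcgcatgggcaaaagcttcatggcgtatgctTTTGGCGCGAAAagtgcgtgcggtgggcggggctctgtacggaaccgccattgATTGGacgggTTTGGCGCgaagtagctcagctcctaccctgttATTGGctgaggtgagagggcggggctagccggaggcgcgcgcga
Ccnb2 (chr9:70421525-70421804, minus strand): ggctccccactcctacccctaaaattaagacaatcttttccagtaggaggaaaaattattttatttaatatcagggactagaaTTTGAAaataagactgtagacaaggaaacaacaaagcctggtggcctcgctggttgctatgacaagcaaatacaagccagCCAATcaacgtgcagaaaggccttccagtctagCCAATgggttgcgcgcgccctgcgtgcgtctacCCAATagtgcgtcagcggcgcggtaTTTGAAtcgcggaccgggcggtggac
Nusap1 (chr2:119618048-119618327, plus strand): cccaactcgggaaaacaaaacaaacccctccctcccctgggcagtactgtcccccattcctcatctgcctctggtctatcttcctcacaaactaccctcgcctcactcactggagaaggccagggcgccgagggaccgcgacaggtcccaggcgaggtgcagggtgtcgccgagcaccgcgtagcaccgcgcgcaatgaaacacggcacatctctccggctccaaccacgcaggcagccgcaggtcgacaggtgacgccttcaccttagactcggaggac
Ube2c (chr2:164769679-164769958, plus strand): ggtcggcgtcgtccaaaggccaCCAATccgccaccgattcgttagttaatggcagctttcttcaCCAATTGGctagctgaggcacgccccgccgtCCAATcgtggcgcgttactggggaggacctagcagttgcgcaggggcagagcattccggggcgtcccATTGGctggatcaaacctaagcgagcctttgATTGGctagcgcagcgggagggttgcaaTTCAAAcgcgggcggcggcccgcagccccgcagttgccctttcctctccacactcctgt

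Counting the first transcribed base as 1, Mcm6 held E2F letters from -110 to -103, overlapped on the other strand by a match from -106 to -99, and again from -47 to -40. Ccnb2 held CHR letters from 5 to 10, just past the start, with CCAAT boxes from -87, -54 and -21, and a further CHR match from -167. Ube2c held CHR letters from -29 to -24 on the minus strand and 6 CCAAT matches, of which 2 overlap. Rrm2 and Pcna held 1 CCAAT match each, and Rfc4 and Nusap1 held no exact match to these letters. Other spellings of the E2F site were not searched for.

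Over the whole 300-base windows, E2F letters were present in 6 of 18 S-phase promoters (33.3%) and 1 of 18 mitotic promoters (5.56%), against 2.32% of 27025 promoters of all genes. CHR letters were present in 13 of 18 mitotic promoters (72.2%) and 3 of 18 S-phase promoters (16.7%), against 18.1% of all. A CCAAT box was present in 88.9% of mitotic and 61.1% of S-phase promoters, against 37.9% of all. Among windows that start at the outermost end of the gene, the CHR share was 6 of 11 for mitotic genes (54.5%) and 19.8% for all genes, and the E2F share was 3 of 11 for S-phase genes (27.3%) and 1.95% for all. The E2F letters stood in promoters of Mcm3, Mcm5, Mcm6, Mcm7, Cdc6 and Cdt1, all of which encode licensing proteins, and in that of Cdk1. Among S-phase promoters, E2F letters stood in 0 of 7 called lower, 1 of 2 called higher and 5 of 9 not called. The windows of E2f1 and E2f8 (called lower) and of Tyms, Cdc6 and Mcm7 (not called) start inside the gene. Among mitotic promoters, E2F letters stood in 0 of 5 called lower, 0 of 3 called higher and 1 of 10 not called. These matches are letters only, and no binding was measured.

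**Figure D1:**
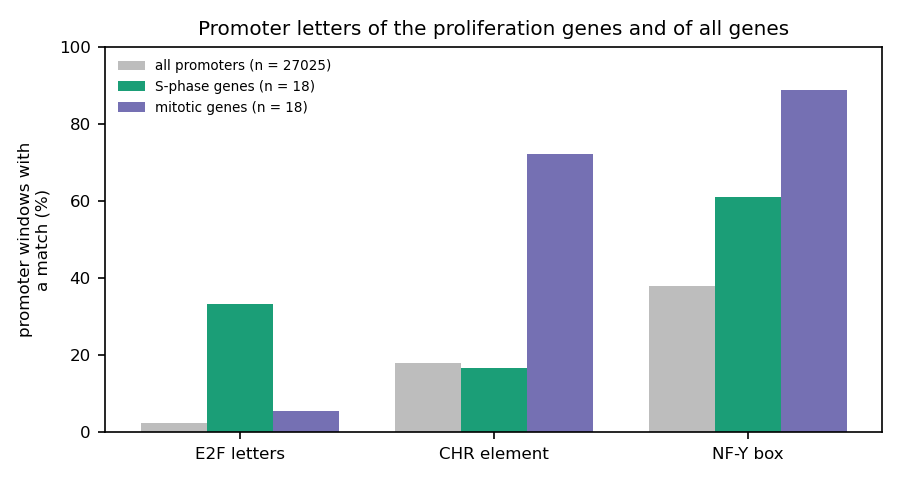
Share of 300-base promoter windows (%, y axis) with at least 1 match to E2F, CHR or CCAAT (NF-Y) letters, for all 27025 promoters (grey), 18 S-phase genes (green) and 18 mitotic genes (violet). E2F letters stood in 33.3% of S-phase windows and CHR letters in 72.2% of mitotic windows.

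Xpr1 itself, the targeted gene, stood at 1173.5, 1187.4, 1073.7, 1285.3 and 1090.8 normalized counts in Mrc1Cre Xpr1fl/fl samples 1 to 5 and at 1780.9, 1859.6, 2239.2 and 2046.7 in Xpr1fl/fl samples 1 to 4 (log2 fold change -0.77, SE 0.08, adjusted p = 4.13e-05). The groups did not overlap, so no label went against this gene's level. All fold changes below are Mrc1Cre Xpr1fl/fl over Xpr1fl/fl on the log2(normalized count + 1) scale, tested with limma across all 13594 genes with Benjamini-Hochberg adjustment and a threshold of 0.05, and values per sample are given in this order of samples.

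The mean level of neither phase separated the genotypes. The mean log2 value over the 21 S-phase genes was 11.23 ± 0.07 (SD, n = 5) in Mrc1Cre Xpr1fl/fl macrophages and 11.31 ± 0.08 (SD, n = 4) in controls. Over the 23 mitotic genes it was 11.55 ± 0.06 (SD, n = 5) and 11.52 ± 0.10 (SD, n = 4). Together the 44 genes took 0.539% to 0.604% of the normalized counts of a Mrc1Cre Xpr1fl/fl sample and 0.538% to 0.62% of those of a control, so the ranges overlapped almost fully. Inside each phase, single genes separated the genotypes in opposite directions, by small amounts.

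Of the 21 S-phase genes, 8 were lower, 2 were higher and 11 were not called. Of the 23 mitotic genes, 6 were lower, 4 were higher and 13 were not called. Across all genes tested, 21.6% were called lower, 21.5% higher and 56.9% not called. The 38.1% of S-phase genes called lower thus lay above the share over all genes, the 9.52% called higher lay below it, and the mitotic shares of 26.1% and 17.4% lay close to it; these are descriptions, with no test of the list. The median log2 fold change was -0.03 over S-phase genes and 0.06 over mitotic genes, beside 0.005 over all genes. Changes were small: the members ranged from -0.44 to 0.46, and none passed 0.5 in size, a size passed by 26.5% of all genes. In 6 of the S-phase genes (Pcna, Rrm2, Rfc4, Ccne1, E2f1 and E2f8) all 5 Mrc1Cre Xpr1fl/fl samples lay below all 4 controls, and in none did they all lie above. Mitotic genes with no overlap were Ccna2, Ccnb2, Birc5, Ube2c and Nusap1, which were lower, and Kif20a, which was higher. Over all genes, 17.5% were lower and 16.6% higher without overlap.

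The balance of directions depended on the scaling. When samples were scaled to equal 75th percentiles, 27.3% of all genes were called lower and 14.7% higher, so that 35% of all calls were higher in place of 49.9%. The median of all genes moved by -0.079. In this setting the S-phase genes split into 10 lower and 0 higher, and the mitotic genes stayed at 6 lower and 4 higher. With quantile normalization, which called 18.8% of all genes lower and 21.8% higher, the S-phase genes split into 10 lower and 1 higher and the mitotic genes into 6 lower and 3 higher. The mitotic median turned to -0.02 in both, and the S-phase median fell to -0.11 and -0.14.

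**Figure D2:**
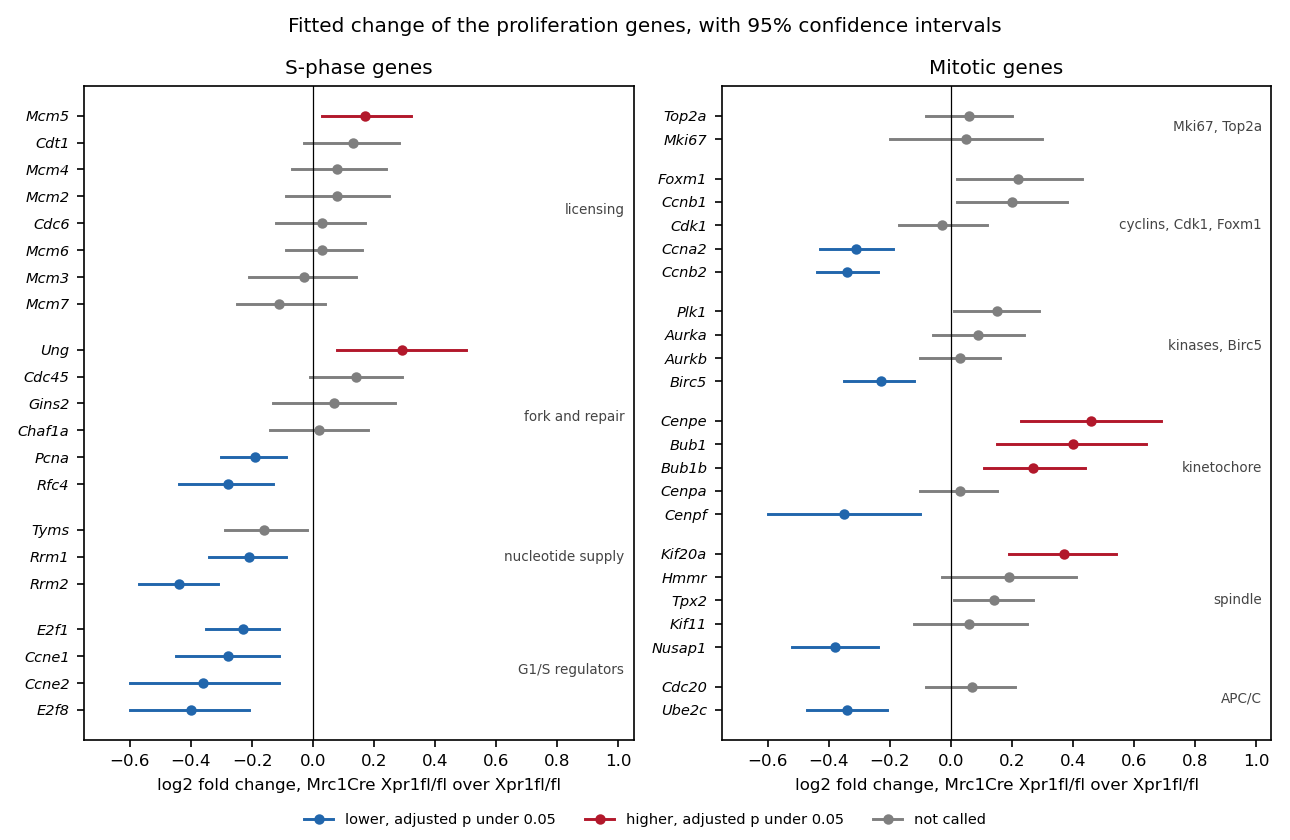
Log2 fold change (x axis) of each of the 21 S-phase genes (left) and 23 mitotic genes (right), grouped by role, with 95% confidence intervals of the limma fit as bars; blue and red mark genes called lower and higher, grey those not called. Values ran from -0.44 for Rrm2 to 0.46 for Cenpe.

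Among S-phase genes, the licensing group gave a single call. Licensing loads the helicase MCM2-7 on DNA with the help of CDC6 and CDT1 before replication begins. Of its 8 genes 7 were not called. Mcm5, the exception, stood at 7851.8, 8538.2, 7610.6, 7043.6 and 7530.3 normalized counts in Mrc1Cre Xpr1fl/fl samples and 6388.5, 7400.6, 6502.0 and 7068.6 in controls (log2 fold change 0.17, SE 0.06, adjusted p = 0.0487). The groups overlapped, since Mrc1Cre Xpr1fl/fl sample 4 lay among the controls. The call was lost without any one of Mrc1Cre Xpr1fl/fl samples 1, 2, 3 and 5 or Xpr1fl/fl samples 1, 3 and 4, with adjusted p from 0.0531 to 0.129. It was also lost under both scalings (adjusted p = 0.253 and 0.327).

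The other 5 helicase subunits lay on both sides of 0. Mcm2 had a log2 fold change of 0.08 (95% CI -0.09 to 0.25), Mcm4 of 0.08 (-0.07 to 0.24) and Mcm6 of 0.03 (-0.09 to 0.16). Mcm3 had one of -0.03 (-0.21 to 0.14) and Mcm7 of -0.11 (-0.25 to 0.04). Mcm6, whose promoter holds the 3 E2F matches shown above, stood at 8115, 8643, 7841, 7434 and 7553 normalized counts in Mrc1Cre Xpr1fl/fl samples and 7544, 8226, 7371 and 7809 in controls, which overlap over most of their range. Cdc6 had a log2 fold change of 0.03 (-0.12 to 0.17) and Cdt1 of 0.13 (-0.03 to 0.28). Per kilobase of the canonical transcript, the control means of the helicase genes ran from 973.2 for Mcm4 to 2605.2 normalized counts for Mcm6.

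At the fork, the clamp and 1 subunit of its loader were lower among the members. Pcna, the sliding clamp that holds polymerases on DNA, stood at 8355.9, 8269.5, 8227.0, 7486.6 and 8471.6 normalized counts in Mrc1Cre Xpr1fl/fl samples and 9066.9, 9424.6, 9141.0 and 9686.5 in controls (log2 fold change -0.19, SE 0.05, adjusted p = 0.00841). It had the highest level per kilobase of the S-phase genes, 6146.1 normalized counts in controls, and the change was a lowering of the mean from 9329.7 ± 283.4 (SD, n = 4) to 8162.1 ± 389.1 (SD, n = 5). Rfc4, a subunit of the loader that opens the clamp, stood at 707, 683, 612, 632 and 683 in Mrc1Cre Xpr1fl/fl samples and 767, 874, 753 and 838 in controls (log2 fold change -0.28, SE 0.07, adjusted p = 0.00846). Of the other 4 loader subunits, which are no members and were named after their values were seen, Rfc2 was lower (-0.21, SE 0.06, adjusted p = 0.0167), and Rfc1 (0.01, 95% CI -0.11 to 0.13), Rfc3 (0.04, -0.15 to 0.23) and Rfc5 (0.04, -0.23 to 0.30) were not called. Ung, which cuts uracil out of DNA, went the other way, at 891, 986, 919, 796 and 1071 in Mrc1Cre Xpr1fl/fl samples and 845, 784, 661 and 756 in controls (log2 fold change 0.29, SE 0.10, adjusted p = 0.0292). Its groups overlapped through Mrc1Cre Xpr1fl/fl sample 4. Leaving out Mrc1Cre Xpr1fl/fl sample 2, 3 or 5 or Xpr1fl/fl sample 3 or 4 took its adjusted p to between 0.0507 and 0.0929. Gins2 and Cdc45, partners of the helicase, and Chaf1a, which lays down histones behind the fork, were not called, at log2 fold changes of 0.07 (95% CI -0.13 to 0.27), 0.14 (-0.01 to 0.29) and 0.02 (-0.14 to 0.18).

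Of 3 genes of nucleotide supply, 2 were lower and 1 was not called. Ribonucleotide reductase, which makes deoxynucleotides, is built of a large subunit from Rrm1 and a small one from Rrm2. Rrm2 (GRCm39 chr12:24757811-24764145) stood at 4208.1, 4068.8, 3825.6, 3948.0 and 4089.1 normalized counts in Mrc1Cre Xpr1fl/fl samples and 4862.2, 5620.1, 5441.6 and 5952.6 in controls (log2 fold change -0.44, SE 0.06, adjusted p = 0.000219). A gap of 654.1 counts parted its groups, and this was the widest change of the S-phase genes. Rrm1 stood at 7704, 8008, 7542, 7058 and 7215 in Mrc1Cre Xpr1fl/fl samples and 8984, 8925, 7951 and 8985 in controls (log2 fold change -0.21, SE 0.06, adjusted p = 0.00959), with Xpr1fl/fl sample 3 inside the range of the Mrc1Cre Xpr1fl/fl samples. The ratio of Rrm1 to Rrm2 within a sample, which a single scaling factor per sample does not move, was 1.86 ± 0.099 (SD, n = 5) in Mrc1Cre Xpr1fl/fl samples and 1.6 ± 0.17 (SD, n = 4) in controls, and its ranges overlapped. Tyms, which makes thymidylate, missed the threshold at -0.16 (SE 0.06, adjusted p = 0.0568). It passed without Mrc1Cre Xpr1fl/fl sample 2 (adjusted p = 0.0443) or 5 (0.0394).

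All 4 members grouped as regulators of the G1/S border were lower, beside 21.6% of all genes tested. This group is small and was drawn from genes chosen with earlier results known. Among 17 further regulators, described below, 3 were lower and 4 higher. E2f8, a repressor of the E2F family that closes the S-phase wave, stood at 1310.4, 1275.2, 1406.8, 1232.8 and 1299.5 normalized counts in Mrc1Cre Xpr1fl/fl samples and 1415.3, 1707.9, 1823.2 and 1995.1 in controls (log2 fold change -0.40, SE 0.09, adjusted p = 0.00404). The highest Mrc1Cre Xpr1fl/fl sample and the lowest control lay close together, and the controls spread more widely. E2f1, the activating E2F, stood at 1471, 1516, 1422, 1355 and 1562 in Mrc1Cre Xpr1fl/fl samples and 1776, 1632, 1708 and 1759 in controls (log2 fold change -0.23, SE 0.06, adjusted p = 0.00691). Ccne1 and Ccne2 encode the E cyclins that start replication with CDK2. Ccne1 stood at 773.4, 800.4, 776.2, 845.0 and 840.2 in Mrc1Cre Xpr1fl/fl samples and 877.2, 1069.8, 914.3 and 1072.5 in controls, again without overlap (log2 fold change -0.28, SE 0.08, adjusted p = 0.0115). Ccne2 stood at 674.0, 682.4, 611.7, 592.4 and 609.6 in Mrc1Cre Xpr1fl/fl samples and 654.4, 745.6, 904.4 and 983.5 in controls (log2 fold change -0.36, SE 0.11, adjusted p = 0.023). Xpr1fl/fl sample 1 lay inside the other group's range, and the call was lost without Mrc1Cre Xpr1fl/fl sample 4 or Xpr1fl/fl sample 3 or 4 (adjusted p = 0.0506, 0.0724 and 0.067).

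In mitosis, the usual markers of division did not separate the genotypes. Mki67, whose product coats mitotic chromosomes, stood at 21013.7, 22352.4, 21464.6, 22234.7 and 16248.4 normalized counts in Mrc1Cre Xpr1fl/fl samples and 16128.3, 20031.3, 21047.6 and 22999.5 in controls (log2 fold change 0.05, 95% CI -0.20 to 0.30, adjusted p = 0.775). Mrc1Cre Xpr1fl/fl sample 5 and Xpr1fl/fl sample 1 were the lowest of their groups by far and nearly equal. Top2a, the topoisomerase that frees sister chromatids, had a log2 fold change of 0.06 (95% CI -0.08 to 0.20, adjusted p = 0.491). For Mki67 the interval covers changes as large as those called in other members.

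Among the cyclins, A2 and B2 were lower and B1 was not. Ccnb2 (GRCm39 chr9:70314966-70328874) stood at 1864.6, 1720.5, 1750.1, 1692.8 and 1740.3 normalized counts in Mrc1Cre Xpr1fl/fl samples and 2217.1, 2187.9, 2209.5 and 2263.1 in controls (log2 fold change -0.34, SE 0.05, adjusted p = 0.000216). Its 4 controls lay within 75.2 counts of each other, above the highest Mrc1Cre Xpr1fl/fl sample. Ccna2, the cyclin of S phase and early mitosis, stood at 4503, 4306, 4136, 4436 and 4454 in Mrc1Cre Xpr1fl/fl samples and 4998, 5228, 5557 and 5879 in controls (log2 fold change -0.31, SE 0.06, adjusted p = 0.00115). Ccnb1, the main mitotic partner of CDK1, stood at 3731.1, 3642.6, 3379.6, 3581.2 and 3384.9 in Mrc1Cre Xpr1fl/fl samples and 2677.9, 3470.3, 2797.0 and 3466.9 in controls, higher on average without passing the threshold (log2 fold change 0.20, SE 0.08, adjusted p = 0.0692). The ratio of Ccnb1 to Ccnb2 within a sample was 1.93 to 2.12 in Mrc1Cre Xpr1fl/fl samples and 1.21 to 1.59 in controls, with no overlap, and that of Ccnb1 to Ccna2 was 0.76 to 0.846 and 0.503 to 0.664. Both ratios were picked after the values were seen and have no test. Cdk1, the kinase these cyclins bind, had a log2 fold change of -0.03 (95% CI -0.17 to 0.12), and Foxm1, which activates mitotic genes, one of 0.22 (SE 0.09, adjusted p = 0.0747).

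Aurka, Aurkb and Plk1, kinases of mitotic entry and the spindle, did not pass the test, whereas Birc5, which holds Aurora B at the centromere, did. Birc5 stood at 2190.8, 2238.8, 2083.5, 2108.5 and 2278.6 normalized counts in Mrc1Cre Xpr1fl/fl samples and 2675.7, 2625.6, 2397.3 and 2559.7 in controls (log2 fold change -0.23, SE 0.05, adjusted p = 0.00389). Aurkb, the partner of Birc5, had a log2 fold change of 0.03 (95% CI -0.10 to 0.16), Aurka, the kinase of the spindle poles, of 0.09 (-0.06 to 0.24), and Plk1, which acts from mitotic entry to cytokinesis, of 0.15 (SE 0.06, adjusted p = 0.0768). Of the anaphase-promoting complex, which ends mitosis by marking cyclin B for destruction, the ubiquitin-conjugating enzyme was lower and the activator was not. Ube2c stood at 2896.3, 2830.0, 2912.7, 2942.6 and 3204.3 in Mrc1Cre Xpr1fl/fl samples and 3832.6, 3512.6, 3522.6 and 4137.4 in controls (log2 fold change -0.34, SE 0.06, adjusted p = 0.00115), with a clear gap between groups. Cdc20 had a log2 fold change of 0.07 (95% CI -0.08 to 0.21).

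The 5 members grouped as kinetochore and checkpoint genes held 3 of the 4 mitotic members called higher, with 1 lower and 1 not called. Over all genes tested, 21.5% were called higher. The group holds only some kinetochore genes, and Spc24, described below, was lower. Cenpe, a kinesin that carries chromosomes to the spindle equator, stood at 3769.7, 4179.4, 3933.6, 4143.9 and 3054.7 normalized counts in Mrc1Cre Xpr1fl/fl samples and 2361.3, 2958.1, 2644.9 and 3128.0 in controls (log2 fold change 0.46, SE 0.10, adjusted p = 0.00441). Its single overlapping value was that of Mrc1Cre Xpr1fl/fl sample 5. Bub1, a checkpoint kinase, stood at 2070.9, 2455.0, 1732.4, 1857.2 and 1661.2 in Mrc1Cre Xpr1fl/fl samples and 1355.1, 1547.4, 1336.5 and 1669.6 in controls (log2 fold change 0.40, SE 0.11, adjusted p = 0.0148). Bub1b, which encodes the checkpoint protein BUBR1, stood at 2990.9, 3298.6, 3636.3, 3317.0 and 2848.4 in Mrc1Cre Xpr1fl/fl samples and 2488.9, 2895.6, 2592.4 and 2650.4 in controls (log2 fold change 0.27, SE 0.07, adjusted p = 0.0119). In Bub1 and Bub1b alike, Mrc1Cre Xpr1fl/fl sample 5 was the lowest of its group and fell just inside the range of the controls. Bub1b lost its call with quantile normalization (adjusted p = 0.0683). Cenpf, a large kinetochore protein, went down, at 1578, 1627, 1597, 1844 and 1886 in Mrc1Cre Xpr1fl/fl samples and 1867, 1806, 2632 and 2488 in controls (log2 fold change -0.35, SE 0.12, adjusted p = 0.0292). Its controls fell into 2 low and 2 high values, and the call was lost without any one of Mrc1Cre Xpr1fl/fl samples 1, 2 and 3 or Xpr1fl/fl samples 3 and 4 (adjusted p from 0.0591 to 0.092). Cenpa, the histone that marks the centromere, had a log2 fold change of 0.03 (95% CI -0.10 to 0.15). The ratio of Bub1b to Birc5 was 1.25 to 1.75 in Mrc1Cre Xpr1fl/fl samples and 0.93 to 1.1 in controls, also picked after the values were seen.

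Spindle genes split as well. Kif20a, the kinesin of the central spindle needed for cytokinesis, stood at 3602, 3706, 3454, 3344 and 3092 normalized counts in Mrc1Cre Xpr1fl/fl samples and 2352, 2921, 2492 and 2932 in controls (log2 fold change 0.37, SE 0.08, adjusted p = 0.00344). It was the only member that was higher without overlap. Nusap1 (GRCm39 chr2:119448779-119481725), which bundles spindle microtubules around chromatin, stood at 1717.5, 1782.4, 1903.0, 1917.8 and 1618.8 in Mrc1Cre Xpr1fl/fl samples and 2249.9, 2226.5, 2335.5 and 2515.2 in controls (log2 fold change -0.38, SE 0.06, adjusted p = 0.000733). Here a gap of 308.7 counts parted the groups. Kif11, the motor that pushes the poles apart, Tpx2, which activates Aurora A, and Hmmr, a spindle-pole protein, were not called, at log2 fold changes of 0.06 (95% CI -0.12 to 0.25), 0.14 (0.01 to 0.27, adjusted p = 0.0748) and 0.19 (-0.03 to 0.41). Without Xpr1fl/fl sample 4, Ccnb1, Foxm1 and Plk1 were called higher (adjusted p = 0.0306, 0.0183 and 0.0238), which took the mitotic genes called higher from 4 to 7.

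**Figure D3:**
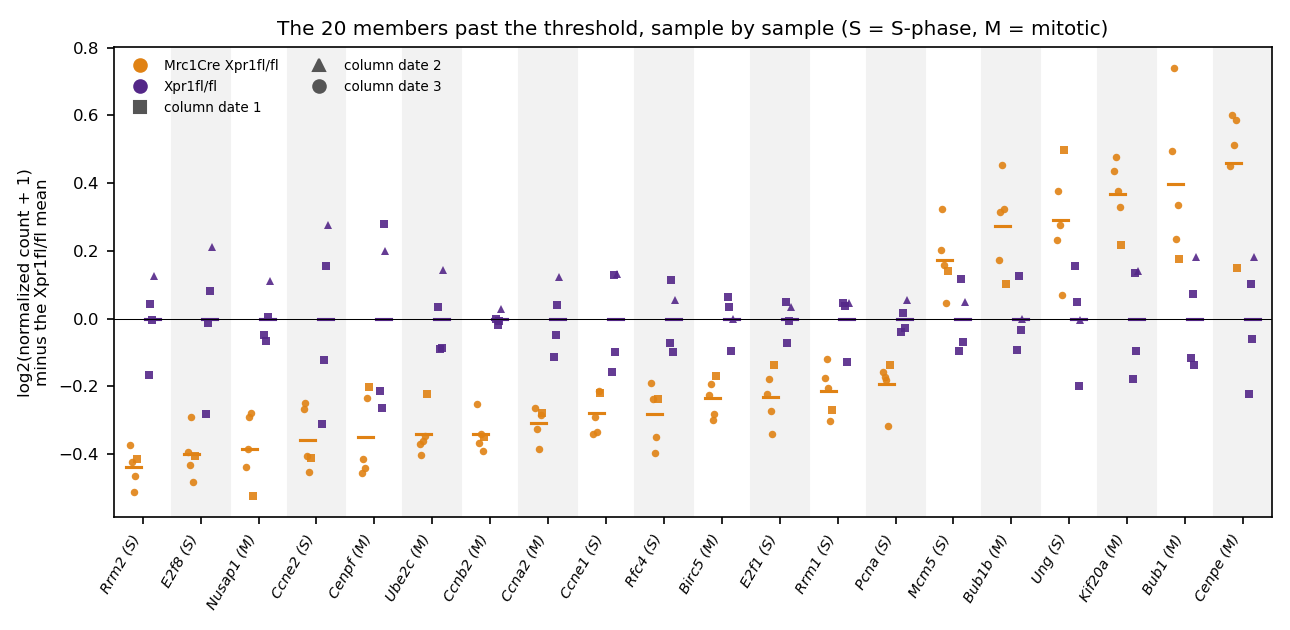
Log2(normalized count + 1) minus the Xpr1fl/fl mean (y axis) of the 20 members past the threshold in each of the 5 Mrc1Cre Xpr1fl/fl (orange) and 4 Xpr1fl/fl samples (violet), with group means as lines and the date in the column name as the symbol (square earliest, triangle middle, circle latest). The 14 genes on the left were lower and the 6 on the right higher, and 12 of the 20 had no overlap between groups.

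Further lists of the pathway held calls in both directions at shares near those of all genes (21.6% lower and 21.5% higher) or below them, apart from the higher calls in the list of regulators. Of 56 further genes of replication, 12 were lower (21.4%) and 5 higher (8.93%), with a median log2 fold change of 0.00. The 3 with the lowest p-values were lower: E2f2, an activating E2F (-1.10, SE 0.15, adjusted p = 0.000182), Slbp, which binds histone messages in S phase (-0.41, SE 0.05, adjusted p = 0.000184), and Tk1, thymidine kinase (-0.41, SE 0.06, adjusted p = 0.000487). Of 58 further mitotic genes, 10 were lower (17.2%), 8 were higher (13.8%) and the median stood at 0.06. Their lowest p-values belonged to Cdc25b, the phosphatase that switches on CDK1 (-1.14, SE 0.16, adjusted p = 0.00024), Iqgap3, a scaffold protein (0.44, SE 0.08, adjusted p = 0.000991), and Spc24, part of the outer kinetochore (-0.49, SE 0.09, adjusted p = 0.00117). Of 17 regulators of the retinoblastoma, E2F and MuvB complexes, 3 were lower (17.6%) and 4 higher (23.5%). Tfdp2, a dimer partner of E2F proteins, fell by 1.24 on the log2 scale (SE 0.16, adjusted p = 0.000159), and E2f6, a repressor, rose (0.33, SE 0.07, adjusted p = 0.00344). E2f2 stands in both the first and the last of these lists. After 75th percentile scaling the counts were 19 lower and 1 higher, 15 lower and 3 higher, and 4 lower and 2 higher, so the balance depended on scaling here too, as it did for all genes.

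Of these further genes, 7 were called with log2 fold changes below those of all members (Tfdp2, Cdc25b, E2f2, Cenpm, Spc24, Tipin and Fbxo5) and 1 above (Hells), and they are named because of it. Hells, a chromatin remodeller of S phase, stood at 2252, 2455, 2138, 2215 and 1749 normalized counts in Mrc1Cre Xpr1fl/fl samples and 1235, 1662, 1307 and 1324 in controls (0.65, SE 0.11, adjusted p = 0.000663), where sample 5 was the lowest of its group and Xpr1fl/fl sample 2 the highest of the controls. E2f2 stood at 1273.6, 1177.3, 1515.4, 1454.6 and 1809.9 normalized counts in Mrc1Cre Xpr1fl/fl samples and 2777.7, 2403.2, 3691.6 and 3628.1 in controls. Cdc25b stood at 1470.2, 1047.1, 1360.0, 1407.7 and 1950.9 in Mrc1Cre Xpr1fl/fl samples and 2758.3, 2627.5, 3670.6 and 3580.1 in controls. For Tfdp2 the values were 893, 722, 813, 692 and 1125 in Mrc1Cre Xpr1fl/fl samples and 1822, 1511, 2283 and 2413 in controls. In E2f2, Cdc25b, Tfdp2 and Fbxo5, unlike Hells, Mrc1Cre Xpr1fl/fl sample 5 was the highest of its group. Xpr1fl/fl samples 3 and 4 were the highest controls in these genes. Cenpm and Tipin did not share this order, and Spc24 shared it only in part. The highest samples were Mrc1Cre Xpr1fl/fl 4 and Xpr1fl/fl 1 in Cenpm, and Mrc1Cre Xpr1fl/fl 3 and Xpr1fl/fl 1 in Tipin. In Spc24, Mrc1Cre Xpr1fl/fl sample 5 was the highest of its group and Xpr1fl/fl sample 3 the highest control, but Xpr1fl/fl sample 4 was the lowest control. A link of either order to the erythroid markers was not tested. The erythroid markers were highest in Mrc1Cre Xpr1fl/fl sample 5 and, among controls, in Xpr1fl/fl samples 3 and 4. Summed over the 29 of 30 erythroid genes with a row, they came to between 115201 and 338665 normalized counts in Mrc1Cre Xpr1fl/fl samples, the highest in sample 5, and to between 452105 and 705621 in controls, the 2 highest in samples 3 and 4.

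Markers of several cell types moved with genotype beside these genes. Over all genes tested, 21.6% were called lower and 21.5% higher. All 29 erythroid genes tested were lower, with a median log2 fold change of -1.78, and the most abundant, Hba-a1, stood at 33653, 25798, 42987, 43152 and 85791 normalized counts in Mrc1Cre Xpr1fl/fl samples and 161278, 113877, 181388 and 174291 in controls. Hepatocyte markers were lower in 10 of 10 genes (summed level 35296 to 45789 against 59863 to 102806), endothelial markers in 8 of 10 (6330 to 8456 against 10422 to 14598), lymphoid markers in 5 of 5 with a row (89 to 139 against 247 to 577), megakaryocyte markers in 3 of 6 (742 to 1081 against 2252 to 2698) and progenitor and granulocyte markers in 8 of 16 (6224 to 19214 against 10876 to 58488). The progenitor and granulocyte sums overlapped through Xpr1fl/fl sample 4 (10876). Monocyte markers were higher in 2 of 8 genes and lower in 4 (8758 to 11987 against 7177 to 9410). These sums weigh abundant genes most. Plac8 alone held 5104.9 to 7602.6 of the monocyte sum in Mrc1Cre Xpr1fl/fl samples and 2730.7 to 3819.2 in controls. Sums that fell were weighted likewise. Stab2 held 3809.1 to 5674.6 against 7166.6 to 9128.9 of the endothelial sum, and Pf4 437.5 to 667.3 against 1614.1 to 2096.8 of the megakaryocyte sum. Trf held 19650.9 to 23250.1 against 27161.3 to 38737.5 of the hepatocyte sum. The median log2 fold change over the 8 monocyte genes was -0.41. The 12 macrophage markers were all present, with 5 lower and 0 higher and a summed level of 392122 to 446746 against 463424 to 616347. The lower ones were Marco (log2 fold change -1.73), Cd5l (-0.90), C1qa (-0.86), Timd4 (-0.85) and C1qc (-0.41). Adgre1 (0.02), Csf1r (0.14), Mertk (0.16), Fcgr1 (0.03), Cd68 (-0.13), C1qb (-0.11) and Lgmn (-0.14) were not called, so the markers did not move as 1 group. Of the most abundant gene of each of these lists, Plac8 (monocytes) was higher (log2 fold change 0.91, adjusted p = 0.000292), S100a9 (granulocytes) was not called (-1.42, adjusted p = 0.169), and Cd5l (macrophages, -0.90), Trf (hepatocytes, -0.67), Stab2 (endothelium, -0.78), Pf4 (megakaryocytes, -1.76) and Cd79a (lymphoid cells, -1.50) were lower. No marker was at 0 in every sample. Erythroid and progenitor cells also divide, and the part of their transcripts in the members' counts was not tested directly. With the mean erythroid log2 value as a covariate, 0 of the 44 members and 19 of all 13594 genes were called, but 85.9% of that covariate's variance lay between the genotypes, so the covariate and the genotype cannot be told apart.

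**Figure D4:**
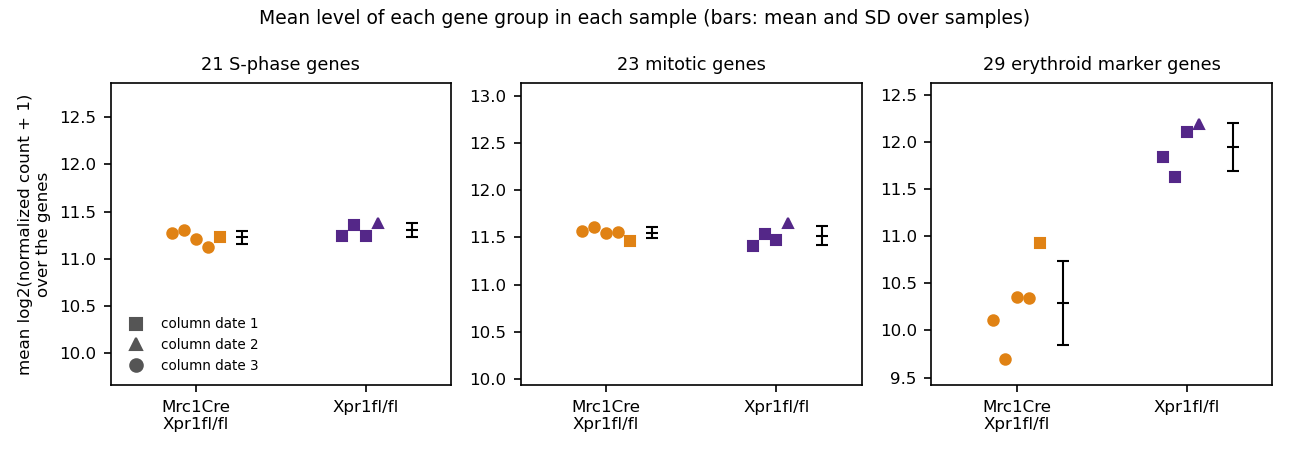
Mean log2(normalized count + 1) (y axis, the same span in each panel) over the 21 S-phase genes, 23 mitotic genes and 29 erythroid marker genes in each sample, with the mean and SD over samples as bars and the column date as the symbol. The S-phase and mitotic means overlapped between genotypes, while the erythroid means were 9.7 to 10.93 in Mrc1Cre Xpr1fl/fl and 11.63 to 12.19 in Xpr1fl/fl samples.

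Dates at the start of the column names divided the samples unevenly. Mrc1Cre Xpr1fl/fl sample 5 shared the first date with Xpr1fl/fl samples 1 to 3, Xpr1fl/fl sample 4 had the second, and Mrc1Cre Xpr1fl/fl samples 1 to 4 had the latest. The labels do not say what the date records. With the date as a term, which leaves the comparison to the single Mrc1Cre Xpr1fl/fl sample of the first date, 4.54% of all genes were called lower and 4.24% higher. The call was kept in 3 members, all lower: Rrm2 (-0.37, adjusted p = 0.0414), Ccnb2 (-0.34, adjusted p = 0.0375) and Nusap1 (-0.49, adjusted p = 0.0131). No member was called higher. A single sample on one side gives this comparison little precision.

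**Figure D5:**
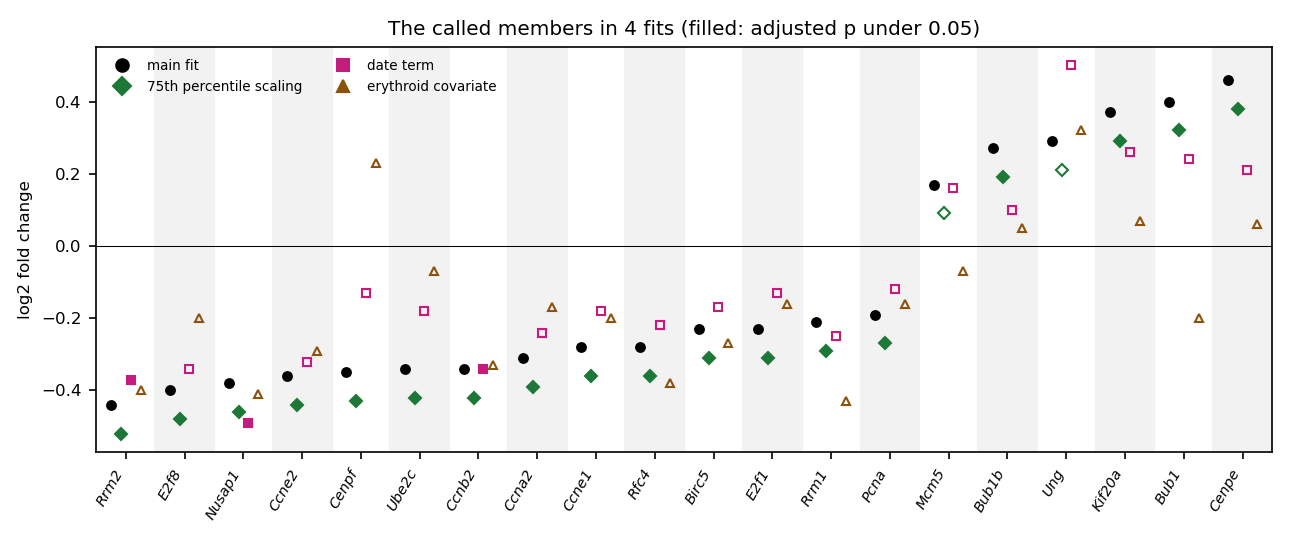
Log2 fold change (y axis) of the 20 called members in the fit without covariates (circles), after 75th percentile scaling (diamonds), with the column date as a term (squares) and with the erythroid mean as a covariate (triangles); filled symbols have an adjusted p under 0.05. With the date term only Rrm2, Ccnb2 and Nusap1 stayed filled, and with the erythroid covariate none did.

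Members called lower and higher were also compared in what the choice of genes did not use. The canonical transcripts of the 14 genes called lower had a median length of 2678 bases, those of the 6 called higher 3964 and those of the 24 not called 3636. With each sample's trend over transcript length taken out, an alternative chosen after seeing the data, 18 of the 20 calls were kept, 2 were lost (Mcm5 and Pcna, both at an adjusted p of 0.115) and 3 members were newly called. Control levels per kilobase ran from 157.9 for Ccne2 to 6146.1 for Pcna among S-phase genes and from 196.1 for Cenpf to 3879.3 for Ube2c among mitotic genes. The spread between samples of 1 group was small, with a median coefficient of variation of 7.41% over S-phase and 8.46% over mitotic genes in controls and 6.48% and 5.41% in Mrc1Cre Xpr1fl/fl samples. The 16 calls other than Mcm5, Ung, Ccne2 and Cenpf were kept when any single sample was left out.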

How the data were processed

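RNA-seq of 5 Mrc1Cre Xpr1fl/fl and 4 Xpr1fl/fl samples of sorted E15.5 FL macrophages was analysed. As deposited, the values are a scaled signal, normalized counts per gene, for which the authors quantified reads with salmon against GRCm39, imported them with tximport and scaled them with DESeq2, after FastQC (versions not given in the sources used here). Raw counts and depth per library could not be recovered, so no count test was run. Samples were grouped by their labels and columns matched by name.

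Genes were named with GENCODE vM39. The 13594 genes that reached 10 normalized counts in 4 or more samples were fitted as log2(normalized count + 1) with limma 3.58.1 in R 4.3.3 (eBayes with trend, no covariates), with Benjamini-Hochberg adjustment over all of them; the pseudocount slightly understates changes of low genes. The fit was tested on simulated data. Other pseudocounts, filters, scalings, variance models, weights, a replicate block, a date term, an erythroid covariate and leaving out each sample were tried, and a transcript length correction was added after seeing the data.

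The members and lists were chosen with earlier results of these data known. The rule for naming took all 44 members, the 3 called genes of lowest p in each further list, Xpr1 and the most abundant gene of each marker list. Promoters printed are those of lowest p in each phase off chromosome 18, among members with a promoter in the reference used. Ccna2 came before Ube2c but had no promoter there. E2f8 and E2f1 came before Pcna and Rfc4 but were passed over because their windows start 477 and 466 bases inside the gene. The markers Ahsp (erythroid) and Cd3e (lymphoid) were not analysed here. Same-numbered samples did not deviate together, so replicate numbers were not taken as pairs.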

Additional observations from a re-analysis of the deposited data

Results flagged for a closer look

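Over the 44 members, 88 groups of samples were searched for a single value far from the rest of its group by Dixon's test at 95%, and 4 were found, where chance alone gives 4.4. In Pcna, Mrc1Cre Xpr1fl/fl sample 4 stood at 7486.6 normalized counts while the other 4 samples of its group stood between 8227.0 and 8471.6. In Rrm1, Xpr1fl/fl sample 3 stood at 7950.7 against 8925.2 to 8985.1 in the other 3 controls. In Mki67, Mrc1Cre Xpr1fl/fl sample 5 stood at 16248.4 against 21013.7 to 22352.4. In Plk1, the same sample stood at 2769.9 against 2972.2 to 3051.1. Pcna and Rrm1 stayed called lower without any single sample, and Plk1 was called higher without this sample (log2 fold change 0.17, adjusted p = 0.0471 in the limma fit). Mrc1Cre Xpr1fl/fl sample 5 is also the one of its group that shares a column date with controls, and the part of the date in its values was not tested.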

How the results depend on the processing

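Apart from the erythroid covariate, no alternative turned the sign of a called member, and 75th percentile scaling, which moved the median gene by -0.079, was too small a shift to do so. With that covariate 0 members were called, against 8 S-phase genes lower, 2 higher and 6 mitotic genes lower, 4 higher, 19 genes in all were called in place of 5865, the medians were -0.19 (S-phase) and -0.07 (mitotic), and Mcm5 (-0.07), Bub1 (-0.20), Cenpf (0.23), Cdc25b (0.06), Cd5l (0.19) and Hba-a1 (0.36) turned their sign without being called. With the date term 1 S-phase and 2 mitotic genes were lower, 0 were higher in either phase, and 1194 genes were called. After 75th percentile scaling 0 S-phase genes were higher and the medians were -0.11 and -0.02; with quantile normalization 1 was higher and the medians were -0.14 and -0.02. Without the variance trend 1 S-phase gene was higher. The replicate block (the shared replicate number) left 1 S-phase gene higher and 7 mitotic genes higher, with 6226 genes called; same-numbered samples correlated at -0.0333 to 0.1468 in their deviations, and this shared number is no pairing. Leaving out each sample in turn gave 7 to 9 S-phase genes lower, 0 to 2 higher, 5 to 6 mitotic genes lower, 4 to 7 higher, medians of -0.08 to 0.01 and 0.04 to 0.11, and 4815 to 6081 genes in all. Of the 20 calls, 14 were kept in every setting other than the date term, the erythroid covariate and the replicate block, and Mcm5, Ung, Ccne2, Cenpf, Bub1b and Pcna were each lost in at least 1. The cause was not tested. Depth per library is unknown; the smallest change called among members was 0.17 on the log2 scale.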
